A study of Mus musculus with 2 samples.

Results

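The SR splicing factors examined here were the 10 mouse genes Srsf1, Srsf2, Srsf3, Srsf4, Srsf5, Srsf6, Srsf7, Srsf9, Srsf10 and Srsf11. Their exons held 242 of the 160430 unique positions that 10 computational tools listed as N6-methyladenosine (m6A), and all 10 genes were among the 10912 genes with a listed position. A position was taken as a member when it lay within an exon of any annotated transcript of these genes, on the same strand. Native poly(A) RNA from mouse 129 embryonic stem cells (mESCs) was sequenced by Oxford Nanopore direct RNA sequencing (DRS), with 1 wild-type (WT) library, 1 Mettl3 knockout (KO) library and no replicates. Mettl3 is the catalytic subunit of the m6A methyltransferase. The KO cells, edited with CRISPR-Cas9 on both alleles, carry drug resistance cassettes (puromycin, hygromycin) in place of its exons 5 to 7 and came from selected colonies, and the WT cells were of the same 129 background.

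SR proteins bind pre-mRNA through RNA-recognition motifs and recruit the spliceosome through a tail rich in arginine and serine, which kinases of the Srpk and Clk families phosphorylate. Most SR genes limit their own output with a poison exon, a conserved cassette exon that carries a premature stop codon, or with a spliced or retained intron in the 3′ UTR, so that part of their transcripts is sent to nonsense-mediated decay (NMD) or kept in the nucleus. m6A is deposited on nascent mRNA, mainly at RRACH sequences (R is A or G, and H is A, C or T) in long internal exons and near stop codons, and the nuclear m6A reader Ythdc1 is known to interact with several SR proteins.

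The 17 deposited lists gave positions with no score, rate or read number beside them. There was a list each for WT and KO from the 6 tools that can work on a single sample (Tombo, Nanom6A, MINES, m6Anet, Epinano and ELIGOS) and from xPore, which contrasts samples. Nanocompore, DiffErr and DRUMMER had a list each from the comparison of WT with KO, and these 3 lists were counted with WT. The methods describe a minimum number of reads for the sites tested, higher for m6Anet than for the other tools, but the depth of each listed position was unknown here, so a position that was not listed could not be told apart from a position with too few reads. No test between WT and KO was possible with 1 library each. Intervals are 95% Wilson intervals over positions, cover counting error only and treat as independent positions that share reads. The labels were checked at Mettl3, where exons 5 to 7 held 2 WT positions and 0 KO positions, and all exons held 13 and 5. All 8 stem cell marker genes examined had listed positions in both libraries, while 2 of 8 markers of other lineages, Sox17 and Krt18, had any in WT and 1, Krt18, had any in KO.

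The sequences below carry the results that follow. Each gives the listed adenosine with 10 bases on either side, read 5′ to 3′ on the gene's strand from GRCm38, with the central 5-mer in capitals. They are the positions listed by most tools in WT for each gene, with ties shown (2 positions in Srsf1, 2 in Srsf5 and 4 in Srsf10), and the Srsf2 5′ UTR position, which at least 2 comparison tools listed.
Srsf1, 3′ UTR, chromosome 11, 88049977: ctttctgtAGACAtatctgaa
Srsf1, 3′ UTR, chromosome 11, 88051278: caaagcgaGGACCtggagata
Srsf2, 3′ UTR, chromosome 11, 116850934: ttaacagaGGACAttggggga
Srsf2, 5′ UTR, chromosome 11, 116853018: acccacgaGGACTgtagctac
Srsf3, 3′ UTR, chromosome 17, 29041961: gaaatgtaAAACTcagatgcc
Srsf4, 3′ UTR, chromosome 4, 131901491: ctgtttctGGACTtaccaacg
Srsf5, 3′ UTR, chromosome 12, 80949979: tggcaattAAACTgtaaataa
Srsf5, 3′ UTR, chromosome 12, 80950123: gtagatgtGGACCaccaaggg
Srsf6, 3′ UTR, chromosome 2, 162935320: caagtctcAGACCagcaataa
Srsf7, coding sequence, chromosome 17, 80201552: gaaagaatGGACTgaagttct
Srsf9, 3′ UTR, chromosome 5, 115332812: gagtcttaGGACAtttttttt
Srsf10, coding sequence, chromosome 4, 135861877: ggatcggaAGAGTaagtataa
Srsf10, coding sequence, chromosome 4, 135863529: ttagcagtAGACCgactggaa
Srsf10, 3′ UTR, chromosome 4, 135865640: gtggggttAAACTttgtattt
Srsf10, 3′ UTR, chromosome 4, 135865744: ttggatcaAAACAagacccag
Srsf11, 3′ UTR, chromosome 3, 158010926: aaacccttAAACTcacaagtc
The Srsf10 position 135861877 is the last base of an exon. Its 5-mer is AGACA once the exon is joined to the next, while the genome carries the start of the intron there.

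SR genes had listed positions in both libraries, and most WT positions came back in KO. A listing is a call by a tool, and the paper reports that mass spectrometry found almost no m6A in the KO mRNA. WT or comparison lists held 213 positions in the SR genes and KO lists held 181, a ratio of KO to WT positions of 0.85 against 0.834 over all positions of the series. Without the Tombo lists there were 159 WT and 112 KO positions. Of the 213 WT positions, 152 (71.4%, 65 to 77) were also in a KO list, where the share over all WT positions of the series was 59%. A further 61 positions were listed only in WT. KO lists held 29 positions that no WT or comparison list held, 16% of the 181 (11.4 to 22.1), against 29.2% of KO positions in the series. WT positions outnumbered KO positions in 6 genes (Srsf1, Srsf2, Srsf6, Srsf7, Srsf10 and Srsf11), the reverse held in Srsf3, Srsf5 and Srsf9, and Srsf4 had equal numbers. Over all protein-coding genes with a WT position, 68.6% had more WT than KO positions. The WT set drew on 10 tools and the KO set on 7, but each SR position in a comparison list was also in a WT list of another tool, so the comparison lists added none to the count.

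**Figure D1:**
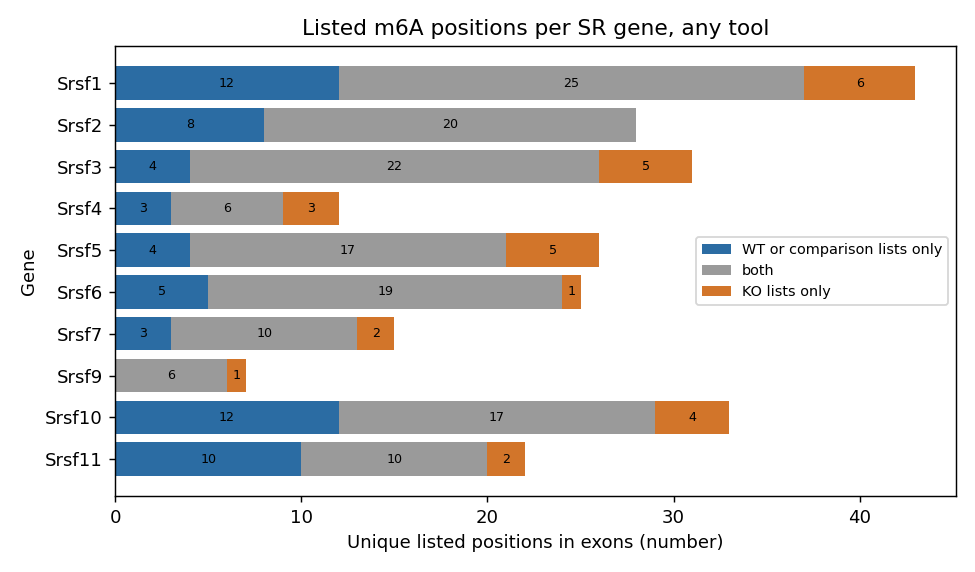
Unique listed positions in exons of each SR gene (horizontal axis, number of positions), split into those listed only in WT or comparison lists (blue), in both libraries (grey) and only in KO (orange). The grey part is the longest in 9 of the 10 genes, and ties with the blue part in Srsf11; Srsf2 has no position listed only in KO and Srsf9 has none listed only in WT.

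Srsf2, Srsf3 and Srsf7 have a single RNA-recognition motif and a long arginine and serine tail. Srsf2 (ENSMUSG00000034120, minus strand of chromosome 11, 116849901 to 116853094) binds exonic enhancers and is a core protein of nuclear speckles. It had 28 positions in WT, 20 of them also in KO, and no position listed only in KO. Of the 17 RRACH sequences on its reference transcript, WT lists held 16 (94.1%) and KO lists held 12 (70.6%), the highest WT share among the 10 genes. Over 8854 protein-coding genes with at least 10 RRACH sequences, the median share was 33.3% in WT (quartiles 17.6 and 50) and 25% in KO (quartiles 11.2 and 41.7). Srsf3 (ENSMUSG00000071172, plus strand of chromosome 17, 29032628 to 29043373), which also acts in mRNA export and in the choice of polyadenylation site, had 26 WT and 27 KO positions, 22 of them shared. Its shares of RRACH sequences were 63.3% in WT and 76.7% in KO. Srsf7 (ENSMUSG00000024097, minus strand of chromosome 17, 80200080 to 80207307), which carries a zinc knuckle and is also an export adaptor, had 13 WT and 12 KO positions, 10 of them shared. WT lists held 54.2% of its RRACH sequences and KO lists 50%.

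Srsf1, Srsf4, Srsf5, Srsf6 and Srsf9 have a pair of RNA-recognition motifs. Srsf1 (ENSMUSG00000018379, plus strand of chromosome 11, 88047373 to 88053755), which acts in both constitutive and alternative splicing, had 37 WT positions, the most of the 10 genes, and 31 KO positions, with 25 shared. Its reference transcript, with 5362 nt and 66 RRACH sequences, was the longest. Srsf6 (ENSMUSG00000016921, plus strand of chromosome 2, 162931528 to 162937121) had 24 and 20 positions with 19 shared. Srsf5 (ENSMUSG00000021134, plus strand of chromosome 12, 80945504 to 80950507), which exists in several coding isoforms, had 21 and 22 with 17 shared. Srsf4 (ENSMUSG00000028911, plus strand of chromosome 4, 131873617 to 131901706) had 9 in each library with 6 shared. Srsf9 (ENSMUSG00000029538, plus strand of chromosome 5, 115327177 to 115333080) had 6 WT and 7 KO positions, and all 6 were shared. The shares of RRACH sequences in WT and then KO lists were 54.5% and 45.5% in Srsf1, 47.6% and 42.9% in Srsf6, 67.9% and 78.6% in Srsf5, 37.5% and 37.5% in Srsf4, and 46.2% and 53.8% in Srsf9.

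Srsf10 and Srsf11 are more distant members of the family. Srsf10 (ENSMUSG00000028676, plus strand of chromosome 4, 135855747 to 135869908), which turns from activator to repressor of splicing when it is dephosphorylated, had 29 WT and 21 KO positions with 17 shared. Srsf11 (ENSMUSG00000055436, minus strand of chromosome 3, 158010473 to 158036639) had 20 WT and 12 KO positions with 10 shared. WT lists held 34.1% of the RRACH sequences of the Srsf10 reference transcript and 38.6% of those of Srsf11, the lowest and the third lowest WT shares of the 10 genes. KO lists held 26.8% and 27.3%.

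The tools contributed unequally, and the share of SR positions found again in KO differed between them. Tombo, which compares the current with a model of unmodified bases, listed 107 SR positions in WT and 102 in KO. Both lists held 79 of the 107 (73.8%, 64.8 to 81.2), where all Tombo positions gave 59.7%. Nanom6A, a machine-learning tool on RRACH sequences, listed 93 and 80, with 71 of 93 (76.3%, 66.8 to 83.8) in both against 65.4% for all its positions. For these tools the SR share lay above that of the series, whose value was outside the interval. MINES, which takes coverage and modified fractions from Tombo, listed 11 and 10, with 7 of 11 (63.6%, 35.4 to 84.8) in both against 40.2% for all, a value within the interval.

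m6Anet, a neural network trained on human m6A sites, listed 31 SR positions in WT and 10 in KO, with 7 of 31 (22.6%, 11.4 to 39.8) in both against 34.4% for all its positions. Epinano, which reads base-calling errors, listed 61 and 26, with 13 of 61 (21.3%, 12.9 to 33.1) in both against 16.5%. ELIGOS, also based on base-calling errors, listed 7 and 1, and the KO position was among the 7 (14.3%, 2.57 to 51.3, against 11.5%). The series values of these 3 tools lay within the intervals. xPore listed 5 WT and 4 KO positions in SR genes, and 4 of the 5 were shared (80%, 37.6 to 96.4, against 24.9%). These 4 were 1 position in Srsf2, 2 in Srsf3 and 1 in Srsf10. When the KO list of any tool counted, the shares rose to 74.2% for m6Anet (series 64.1%), 85.7% for ELIGOS (series 67.6%), 55.7% for Epinano (series 43.7%) and 100% for MINES (series 68.9%). They were 80.4% for Tombo (series 65.9%), 86% for Nanom6A (series 80.7%) and 100% for xPore (series 67.6%).

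**Figure D2:**
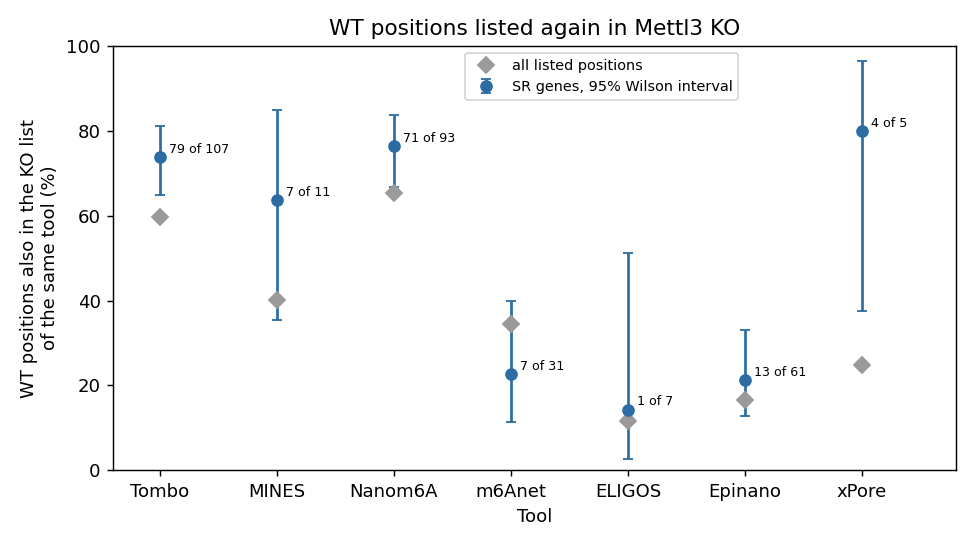
Share of the WT positions of each tool that its KO list also held (vertical axis, percent), for positions in SR genes (blue points with 95% Wilson intervals and counts) and for all listed positions (grey diamonds). The blue points lie above the diamonds for Tombo (73.8% against 59.7%), MINES, Nanom6A, ELIGOS, Epinano and xPore and below for m6Anet (22.6% against 34.4%), and the intervals of MINES, ELIGOS and xPore are wide.

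The tools also divided the genes unequally. Only Tombo had positions in each of the 10 genes for both libraries. Nanom6A listed positions in 9 genes and none in Srsf4, with the most in Srsf3 (19 WT, 23 KO) and Srsf2 (18 WT, 12 KO). m6Anet listed WT positions in 8 genes, 7 of them in Srsf2 and 6 in Srsf1, and none in Srsf4 or Srsf10. Epinano listed 13 WT positions in Srsf1 and 10 in Srsf10, and no WT position in Srsf7 or Srsf9, though it listed 1 KO position in Srsf9. The 7 ELIGOS positions were in Srsf6 (4) and Srsf2 (3), and its 1 KO position was in Srsf6.

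**Figure D3:**
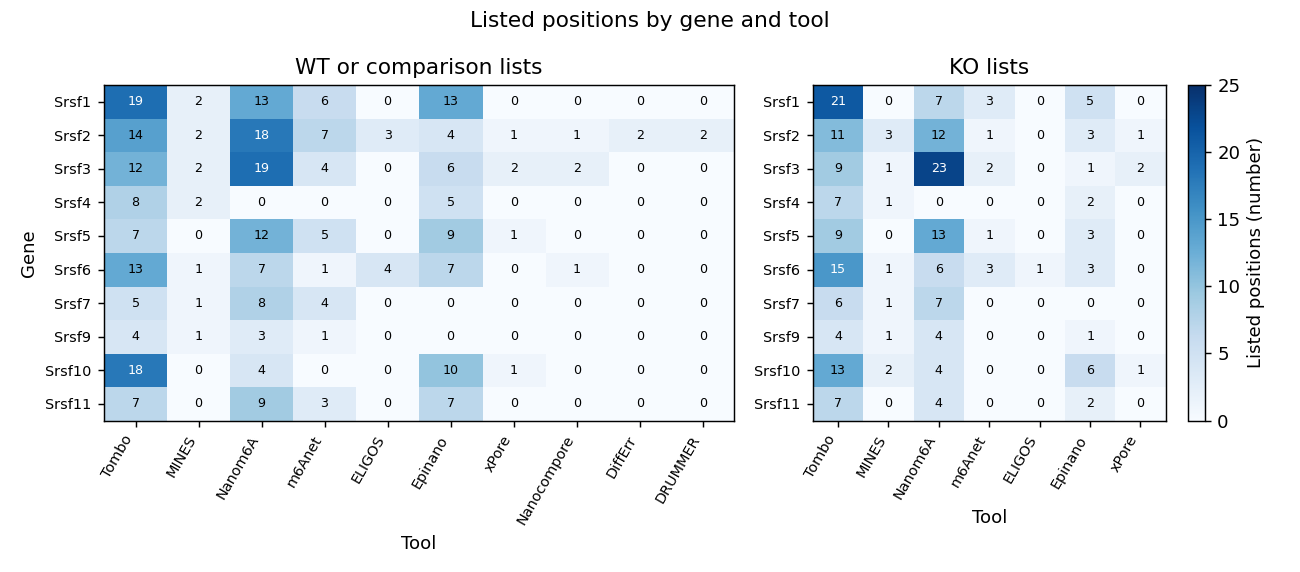
Number of listed positions for each SR gene (rows) and tool (columns), with WT or comparison lists on the left and KO lists on the right; darker blue marks a higher count. Tombo and Nanom6A hold the largest counts in both panels, with 23 Nanom6A positions of Srsf3 in KO the highest, and the columns of m6Anet and Epinano are fainter in KO.

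Few SR positions were shared by many tools, as was the case over the whole series, and Srsf2 held those listed by most. Of the 213 WT positions, 136 (63.8%) were listed by 1 tool, where the series had 65.3%. Only 2 (0.939%, 0.258 to 3.36) were listed by 6 or more tools, where the series had 1.98%. Both were in Srsf2, so 1 of the 10 genes had such a position, while 16% of the 9269 protein-coding genes with a WT position did. The first, in the GGACA at 116850934, lay in the 3′ UTR, 37 nt past the start of the stop codon, near the start of its last exon and 27 nt from the exon junction. It was listed in WT or in the comparison by 8 of the 10 tools, namely Tombo, MINES, Nanom6A, m6Anet, ELIGOS, xPore, DiffErr and DRUMMER. KO lists of 5 tools held it too, those of Tombo, MINES, Nanom6A, Epinano and xPore. It was thus in the comparison lists of DiffErr and DRUMMER and also in both single lists of 4 tools. DiffErr and DRUMMER have no KO list, so here and below WT tool counts draw on more tools than KO counts.

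The other, in the GGACT at 116853018, lay in the 5′ UTR in the first exon, 752 nt before the stop codon. It was listed in WT or the comparison by 7 tools (Tombo, Nanom6A, m6Anet, ELIGOS, Epinano, DiffErr and DRUMMER) and in KO by Nanom6A and m6Anet. Positions listed by at least 2 of Nanocompore, DiffErr and DRUMMER numbered 2 of 213 (0.939%, against 1.12% in the series), and they were these same positions of Srsf2. At least 1 of the 3 comparison tools listed 6 SR positions (2.82%, 1.3 to 6.01, against 2.45%). The other 4 were listed by Nanocompore: an AGACT in the Srsf2 3′ UTR at 116850445, an AGACT in the Srsf3 coding sequence at 29036312, an AGACT in the Srsf3 3′ UTR at 29041691 and a GAACA in the Srsf6 3′ UTR at 162934793. Of these 4, the Srsf2 and Srsf6 positions were in no KO list, the Srsf3 coding position was in the KO list of Nanom6A, and the Srsf3 3′ UTR position was in the KO lists of Nanom6A and xPore.

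**Figure D4:**
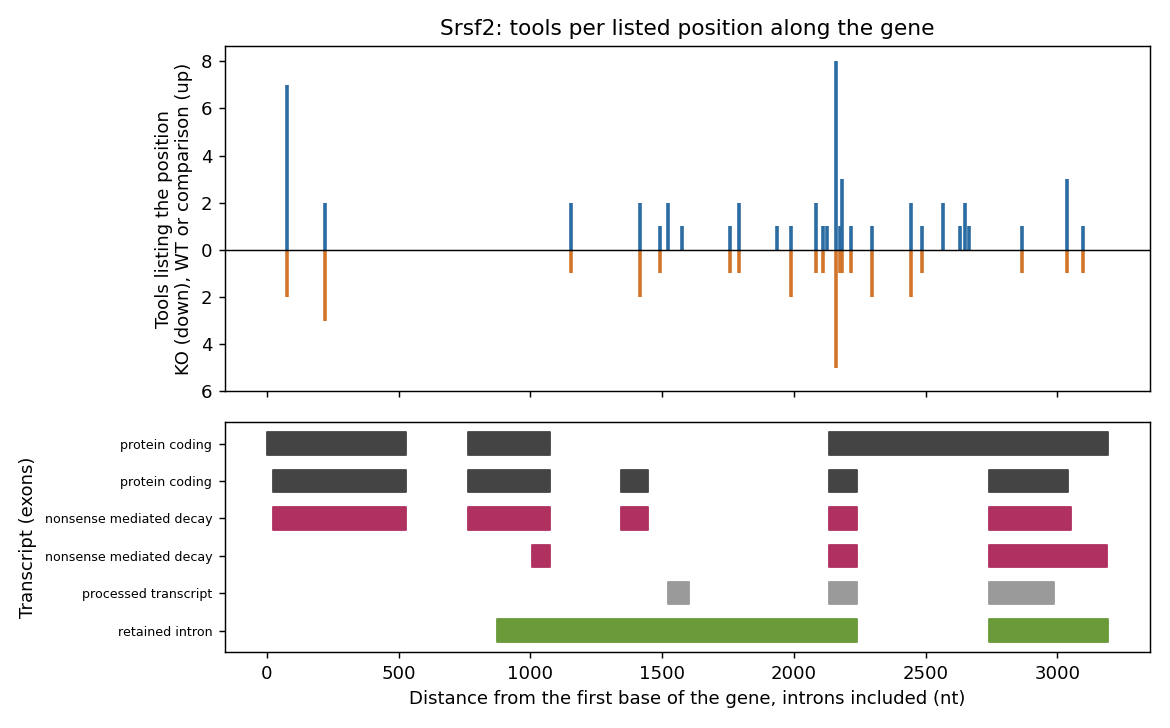
Number of tools that listed each position of Srsf2 (vertical axis; WT or comparison upward in blue, KO downward in orange) by distance from the first base of the gene in nt, introns included, above the exons of its 6 annotated transcripts. The tallest lines are the 5′ UTR position (7 tools in WT, 2 in KO) and the position in the first part of the last exon (8 and 5). All transcripts drawn share this part of the exon. Both WT counts include DiffErr and DRUMMER, which have no KO list. Lines between the second exon and this shared exon fall in the retained intron, and the one at 1417 nt also in a 104-nt exon of a coding transcript.

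There were 5 SR positions listed in both libraries by at least 3 tools each, by their own WT and KO lists, which was 2.35% of the 213 WT positions (1.01 to 5.38), against 2% in the series. They were the Srsf2 position 116850934, the Srsf3 AAACT at 29041961, the Srsf5 GGACC at 80950123, the Srsf6 AGACC at 162935320 and the Srsf9 GGACA at 115332812, all in 3′ UTRs. The Srsf3 position, 552 nt after the stop codon, was listed in WT by Tombo, Nanom6A, m6Anet, Epinano and xPore, and in KO by Tombo, Nanom6A and xPore. The Srsf6 position was listed by Tombo, Nanom6A and m6Anet in both libraries, and the Srsf9 position by Tombo, MINES and Nanom6A in both.

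In the other genes the positions listed by most tools in WT varied in their KO lists, also where positions of a gene were tied. In Srsf5, beside the GGACC at 80950123 (4 tools in WT and 3 in KO), the AAACT at 80949979, whose listed base follows the stop codon directly, was listed in WT by Nanom6A, m6Anet, Epinano and xPore and in KO by Nanom6A. In Srsf7 the GGACT at 80201552, 2 nt before the stop codon, was listed by Tombo, Nanom6A and m6Anet in WT and by Tombo and Nanom6A in KO. In Srsf1 the GGACC at 88051278 was listed by Tombo, Nanom6A and m6Anet in WT and by Tombo in KO, and the AGACA at 88049977 by Tombo, Nanom6A and Epinano in WT and by Tombo and Epinano in KO. The Srsf4 GGACT at 131901491 was listed by Tombo, MINES and Epinano in WT and by Tombo and MINES in KO. The Srsf11 AAACT at 158010926 had Nanom6A, m6Anet and Epinano among its WT lists and Nanom6A as its only KO list. No Srsf10 position was listed by more than 2 tools in WT, and 25 of its 29 were listed by 1 tool. Of the 4 Srsf10 positions with 2 tools, 2 were in no KO list, the one at 135861877 (Tombo and Nanom6A) and the one at 135865744 (Tombo and Epinano). The AAACT at 135865640 was in the WT and KO lists of both Tombo and Nanom6A, and the AGACC at 135863529 was in both WT lists and in the KO list of Nanom6A.

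In all, 11 positions of 7 genes were listed by at least 2 tools in WT and by none in KO, which was 5.16% of the 213 (2.91 to 9.01), where the series had 10.2%. They were 3 in Srsf2, 2 each in Srsf10 and Srsf11, and 1 each in Srsf3, Srsf4, Srsf5 and Srsf6. The Srsf2 position 116850445 and the Srsf6 position 162934793 reached 2 tools only through Nanocompore, which has no KO list. The reverse, at least 2 KO tools and none in WT, held for 2 of the 181 KO positions (1.1%, 0.304 to 3.94), where the series had 2.9%. They were a GGACT in the Srsf1 coding sequence at 88049070 (Tombo and m6Anet) and an AGACC in the Srsf10 coding sequence at 135863541 (Tombo and Epinano).

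The SR positions lay mostly in 3′ UTRs, as did the RRACH sequences of these transcripts. Of the 186 WT positions on coding transcripts, 125 (67.2%, 60.2 to 73.5) were in the 3′ UTR, 52 (28%) in the coding sequence and 9 (4.84%) in the 5′ UTR. Over the series, 40.4% of WT positions were in 3′ UTRs and 56.4% in coding sequence. On the SR reference transcripts, 62.3% of all RRACH sequences were in the 3′ UTR. Here and below this background covers the reference transcripts only, while the listed positions include some placed on other coding transcripts. In KO, 106 of 168 SR positions (63.1%, 55.6 to 70) were in the 3′ UTR. The last exon held 72% of the WT positions on coding transcripts and 68.7% of the RRACH sequences, against 52.1% of WT positions in the series. Positions within 100 nt of an exon junction made up 30.1% of the WT positions and 31.9% of the RRACH sequences, against 45.6% of WT positions in the series.

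Within 200 nt of the stop codon there were 33 of 186 WT positions (17.7%, 12.9 to 23.9), where the series had 22.6%, and 33 of 168 KO positions (19.6%, 14.3 to 26.3), where the series had 21.2%. Of the RRACH sequences on the SR reference transcripts, 44 of 329 (13.4%, 10.1 to 17.5) lay in this window. The WT and KO sets of the SR genes have many positions in common, and the difference between their shares was not tested. Srsf2 had the most such WT positions (6), followed by Srsf5 and Srsf10 (5 each). In Srsf1 the 3′ UTR held 30 of 37 WT positions, and 3 of the 37 were within 200 nt of the stop codon. Srsf10 had 24 of 29 WT positions in the 3′ UTR. In Srsf9 the coding sequence held 4 of 6.

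**Figure D5:**
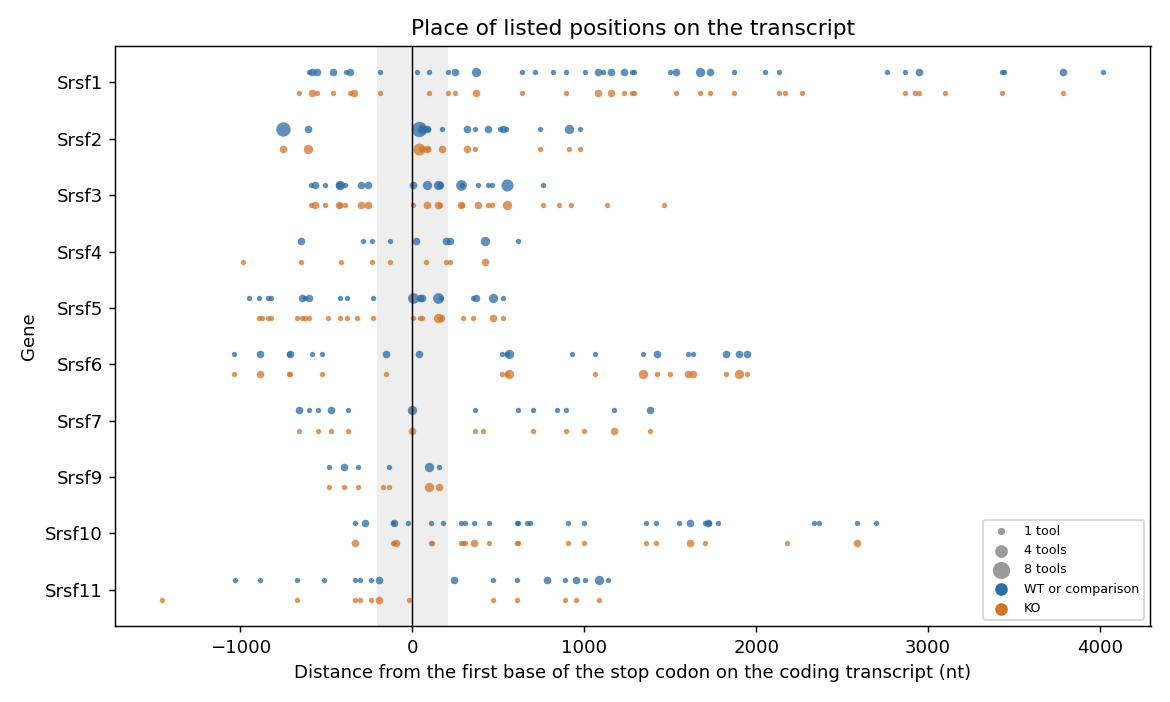
Listed positions of each SR gene (rows) by distance on the coding transcript from where the stop codon starts (horizontal axis, nt), with WT or comparison in blue above and KO in orange below; the area of a point grows with the number of tools, and grey shading marks 200 nt on either side. Positions spread far into the long 3′ UTRs of Srsf1, Srsf6 and Srsf10, and the largest points are the Srsf2 positions at -752 and 37 nt. Blue points draw on 10 tools and orange points on 7.

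The RRACH sequences made of AAAC followed by A, C or T held 75 of the 213 WT positions (35.2%, 29.1 to 41.8), against 18.5% in the series, and 61 of the 181 KO positions (33.7%, 27.2 to 40.9), against 20.5%. These sequences were also 34% of the RRACH sequences on the SR reference transcripts. WT lists held 56 of those 112 (50%, 40.9 to 59.1), close to the 51.4% of all 329 RRACH sequences. The 4 sequences that MINES reports by default, GGAC followed by A, C or T together with AGACT, held 58 WT positions (27.2%, 21.7 to 33.6), against 43.2% in the series, and 55 KO positions (30.4%, 24.2 to 37.4), against 39%. They made up 26.7% of the RRACH sequences, and WT lists held 51 of 88 (58%, 47.5 to 67.7). Of the 19 RRACH positions on reference transcripts that at least 3 tools listed in WT, 10 were in these 4 sequences and 4 in those that begin with AAAC. This count was not made over the series, and by default MINES can add a tool only in the 4 sequences. Of all 242 positions 239 were RRACH on the genome, and the remaining 3, in Srsf10 and Srsf11, became RRACH when the exons were joined. At the Srsf10 position 135863202 this depended on the next exon, as the joined 5-mer was AAACA or AAATA.

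Exons that no coding transcript of the gene contains held 27 of the 213 WT positions (12.7%, 8.86 to 17.8), against 0.757% in the series, and 13 of the 181 KO positions (7.18%, 4.25 to 11.9), against 0.627%. They were in Srsf2 (11 WT, 7 KO), Srsf3 (7 and 4), Srsf6 (4 and 2), Srsf11 (3 and 0) and Srsf5 (2 and 0), and there were none in Srsf1, Srsf4, Srsf7, Srsf9 and Srsf10. Per RRACH sequence they were sparser than positions in coding transcripts: WT lists held 27 of 242 RRACH sequences outside coding transcripts (11.2%, 7.78 to 15.7) and 186 of 370 within them (50.3%, 45.2 to 55.3). KO lists held 5.37% and 45.4%. Outside the reference coding transcript alone, whatever other coding transcripts contain, there were 44 WT and 25 KO positions. Srsf2 stood at 11 of 19 RRACH sequences outside coding transcripts in WT, Srsf6 at 4 of 11, Srsf3 at 7 of 67, Srsf5 at 2 of 20 and Srsf11 at 3 of 72. The lists give no read number, so how many reads covered these exons was not known.

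Most of these positions lay within introns kept whole in transcripts annotated as retained intron, which held 25 of the positions, 24 in WT and 13 in KO. By the shortest annotated exon that holds each position, 15 were in an exon spanning a whole intron (15 in WT, 9 in KO), 10 in an exon lying within an intron (10 and 2) and 3 in an exon extended into an intron (2 and 2). In Srsf2 an exon from 116850856 to 116852219 (1364 nt), which keeps the intron of the 3′ UTR, held all 11 positions. Inside it lies an exon of 81 nt (116851491 to 116851571), the first annotated exon of a processed transcript, which held 2 of the 11, a GAACT at 116851519 (m6Anet) and a GGACT at 116851570 (m6Anet and ELIGOS), neither of them in KO. Outside coding transcripts no position was listed by more than 2 tools in WT. The 6 positions with 2 tools, 4 in Srsf2 and 2 in Srsf3, are shown.
Srsf2, chromosome 11, 116851011: gcactttgGAACCtttttagt
Srsf2, chromosome 11, 116851303: ttgtttggAAACAgccccacc
Srsf2, chromosome 11, 116851570: gctgactgGGACTtcttactc
Srsf2, chromosome 11, 116851940: tagcataaAGACTcctggtgt
Srsf3, chromosome 17, 29041037: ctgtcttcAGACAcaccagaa
Srsf3, chromosome 17, 29041114: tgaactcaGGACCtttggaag
Of the 4 in Srsf2, 3 were also in the KO list of Tombo, and the one at 116851570 was in no KO list. Of the 2 in Srsf3, both in a whole retained intron, the one at 29041114 (Tombo and MINES) was also in the KO list of Tombo, and the one at 29041037 (Tombo and Epinano) was in no KO list. In Srsf5 the positions were a Tombo position at 80948113 and an Epinano position at 80948762, both in a retained intron and neither in KO.

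Candidate poison exons were taken as exons of NMD transcripts that lie within an intron of the reference transcript. None of them is identical to an exon of a coding transcript. They numbered 13 in 6 genes (Srsf3, Srsf4, Srsf6, Srsf7, Srsf9 and Srsf11), with some overlap. Whether they carry a premature stop codon was not checked. The Srsf3 exon from 29040666 to 29040735 and the Srsf4 exon from 131884295 to 131884482 were internal in no NMD transcript, so they are not cassettes. The 13 exons held 36 RRACH sequences, of which 4 were listed in WT and 1 in KO. Over all RRACH sequences outside coding transcripts of the SR genes, WT lists held 11.2% and KO lists held 5.37%. Of the 4, 3 were in the Srsf6 exon from 162932815 to 162933082 on chromosome 2 (268 nt, 5 RRACH sequences), at 162933000 (Tombo, WT), 162933005 (Tombo, WT and KO) and 162933055 (Epinano, WT). The fourth was an AAACA at 158023327 in the Srsf11 exon from 158023243 to 158023359 (117 nt), listed by Epinano in WT. The Srsf3 exon from 29039454 to 29039909 (456 nt, 3 RRACH sequences) held none. Neither did the Srsf7 exon from 80204622 to 80205081 (460 nt, 6 RRACH sequences), nor the exons of Srsf4 and Srsf9. All 4 positions were listed by 1 tool each in WT. The NMD cassette of Srsf2 (104 nt) is also an exon of its second coding transcript, in the 3′ UTR, and was therefore not among the 13. It held 1 listed position, a GGACC at 116851677, in the WT and KO lists of both Tombo and MINES. The same bases also belong to exons of retained intron transcripts in both genes, and which of these molecules carried the listed bases cannot be told apart here.

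The transcript that a list named beside a position gave a further view of these isoforms. Of 285 lines for SR genes in WT or comparison lists that named a transcript, 84 (29.5%) named a transcript annotated for NMD or as a retained intron, where the series had 3.63%. In KO these were 46 of 198 (23.2%), where the series had 3.86%. They were led by the retained intron transcript of Srsf2 (17 lines in WT, 9 in KO), that of Srsf3 (14 and 7), that of Srsf4 (11 and 6) and that of Srsf11 (10 and 4), followed by the NMD transcripts of Srsf2 (8 and 6) and Srsf3 (7 and 4). Of the WT positions, 38 were named only with such non-coding transcripts, and 11 of these lay in exons that a coding transcript shares. In KO, these numbers were 19 and 6. A name in a list is the transcript the authors' alignment chose.

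Genes that act with the SR proteins had listed positions as well. Of 20 genes examined (SR-related proteins, the Srpk and Clk kinases, the import receptor Tnpo3 and partners in early spliceosome assembly), 19 had positions, 366 in WT and 269 in KO. WT positions outnumbered KO positions in 17 (68.6% over all protein-coding genes) and the reverse held in 2, Tra2b (15 and 17) and Srpk1 (17 and 24). Tra2a, Clk3 and Snrnp70 had 1 position each listed by at least 6 tools, where 16% of all protein-coding genes with a WT position had any. The most positions were in Tnpo3 (55 WT, 42 KO), Srrm1 (39 and 22) and Srrm2 (34 and 16), and Srsf12 had none.

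Near-identical copies elsewhere in the genome can take or lend reads for 4 SR genes. Over at least 500 nt, Srsf3 matched Gm12355 at 98.3%, Srsf5 matched Gm12966 at 99%, Srsf10 matched Gm9134 at 97.8% and Srsf4 matched Gm12992 at 93.1%. The first 3 copies held 0 listed positions and Gm12992 held 3. No SR position lay in an exon of another gene on the same strand.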

How the data were processed

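The authors basecalled the reads with Guppy, aligned them to a transcriptome made from the GENCODE mouse annotation with Minimap2, ran each tool and deposited 17 lists of genome positions (mm10, the same build as GRCm38). The deposited values are positions only. The methods describe a minimum read number and a cut-off per tool, set by the best F1 score (the balance of precision and recall) against published miCLIP and miCLIP2 sites. The lists do not say whether they were made with these. The paper gives a range of WT site numbers per tool at its cut-offs. The WT lists of Tombo (75219 positions) and Epinano (44559) lie above this range, and those of ELIGOS (5971) and xPore (5368) below it. The cut-off behind the lists is therefore unknown here. Positions were taken here as unique chromosome, position and strand. They were placed with GENCODE M21, a later release than the authors', on the reference coding transcript (APPRIS principal first), and otherwise on another coding transcript. The listed transcript position matched M21 in 430 of 483 lines, and the other 53 were all in Srsf3 transcripts, shifted by a constant 24 to 45 nt per transcript. The genome sequence was read with pysam 0.24.0 under Python 3.11.15, intervals came from scipy 1.17.1, and copies of the genes were searched with minimap2 2.31-r1302. Placement and intervals were tested on simulated transcripts. The members, the gene lists and the rules for named positions (the position of most tools per gene, here with all ties, and those of at least 2 comparison tools or of at least 3 tools in both libraries) were chosen with earlier results of these data known. The positions of WT or KO alone, the Nanocompore positions and the position in the Srsf2 NMD cassette were named after their values were seen.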

Additional observations from a re-analysis of the deposited data

How the results depend on the processing

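The position totals, the counts by 6 or more tools and by 2 or more comparison tools, the KO share per tool, the stop codon share, the count outside coding transcripts and the SR-related genes were recomputed, each under the choices that bear on it: RRACH sequences only, exons of coding transcripts only, no exons shared with other genes, genes or coding transcripts as named in the lists, matching within 5 bp, 1 count per line, lists without MINES or without Tombo, the KO list of any tool, and windows of 100 and 400 nt. Other values have no alternative. Of the recomputed values, 66 stayed within 1.5 times the count or within the interval of the share, and 15 moved. Some of the 66 could not move. No SR position lay in an exon of another gene, and the stop codon shares already used coding transcripts only. The number 66 is therefore no measure of stability. Counting each line gave 378 WT and 278 KO positions, and leaving out Tombo left 112 KO positions. With the KO list of any tool, the share of WT positions found again in KO was 100% for MINES, 86% for Nanom6A, 74.2% for m6Anet, 85.7% for ELIGOS, 55.7% for Epinano and 100% for xPore. The stop codon window of 100 nt held 9.14% of WT and 9.52% of KO positions, and that of 400 nt held 35.5% and 38.7%. Outside the reference coding transcript alone there were 44 WT and 25 KO positions. No paired analysis was possible because there was 1 library per condition. Depth is unknown for every position, the tools read the same reads, and positions of 1 gene share its reads, so neither agreement between tools nor the number of positions counts as replication.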
